A study of Bactrocera dorsalis with 4 samples.

Results

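The miR-12, miR-283 and miR-3477 cluster of the oriental fruit fly, *Bactrocera dorsalis*, was represented by 4 mature miRNA names, namely the 5p and 3p arms of miR-283 and the 5p arms of miR-3477 and miR-12. They were chosen by name, as every entry of miR-12, miR-283, miR-304 or miR-3477 on either arm whose miRBase column read Yes or Diff in the lists of known miRNAs. These 4 names were part of 165 names with that status, and they took up 17 of 769 list entries. The lists came from the bodies of females after removal of the ovaries, the bodies of males after removal of the testes, the ovaries and the testes, all dissected from adults aged 12 days, with 1 small RNA library per condition. The flies were laboratory-reared and unmated, kept apart by sex from emergence, and the number of flies behind each RNA sample is not given in the sources used here. The lists hold names, sequences and positions but no amounts, so that a miRNA was taken as detected where a list named it, no difference in level between the libraries could be measured from them, no test was made, and the identity of the tissues was not checked against marker miRNAs. The marks Yes, Diff and New stand in a column on the presence of the sequence in miRBase; they are not defined further in the sources used here and are given as listed.

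miRNAs are cut from hairpins by the enzymes Drosha and Dicer, which leave a duplex of a 5p and a 3p strand, and the strand that is loaded into an Argonaute protein finds its targets mainly by its seed, here bases 2 to 8. Hairpins that lie close together on the same strand are often cut from a single primary transcript. In *Drosophila melanogaster* the hairpins mir-283, mir-304 and mir-12 form such a group on the X chromosome, and miR-12 and miR-283 of that species can repress the Hedgehog pathway genes costal-2, fused and smoothened. The name miR-3477 is used in insects outside *Drosophila*, and no entry bore the name miR-304 in any of the 4 *B. dorsalis* lists. This concerns the name only. Sequences were not compared with those of *D. melanogaster*, so whether miR-3477 is the counterpart of miR-304 was not tested.

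The mature sequences are given in their order along the contig, because the seeds and the small differences between forms are what the lists record about this cluster. They are written 5′ to 3′ as in the deposited lists, with T for U and the seed in capitals.
miR-283-5p: aAATATCAgctggtaattctg
miR-283-3p: cGGAATTTcagttggtataca
miR-3477-5p: tAATCTCAatttgtaactgtga
miR-12-5p, 23 nt: tGAGTATTacatcaggtactggt
miR-12-5p, 25 nt: tGATTATTacatcaggtactggtat
mir-12-p3, marked New: cAGTACTTatgtcatactgt

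The cluster held 3 hairpins on the plus strand of contig JFBF01000073.1, in the order mir-283, mir-3477 and mir-12. The mir-283 hairpin ran from 1264457 to 1264575, that of mir-3477 from 1266526 to 1266649 and that of mir-12 from 1266962 to 1267060. The whole group spanned 2604 bases. The spacing was uneven, since 1950 bases separated mir-283 from mir-3477, while only 312 bases lay between mir-3477 and mir-12. No other known hairpin started within 50000 bases of the group. The nearest known neighbour on the contig was the hairpin of miR-31b, 624957 bases away, and the nearest predicted miRNA, PC-3p-16809_139, lay 479576 bases away. The genes around these hairpins were not analysed here, because the annotation at hand is of another assembly.

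**Figure D1:**
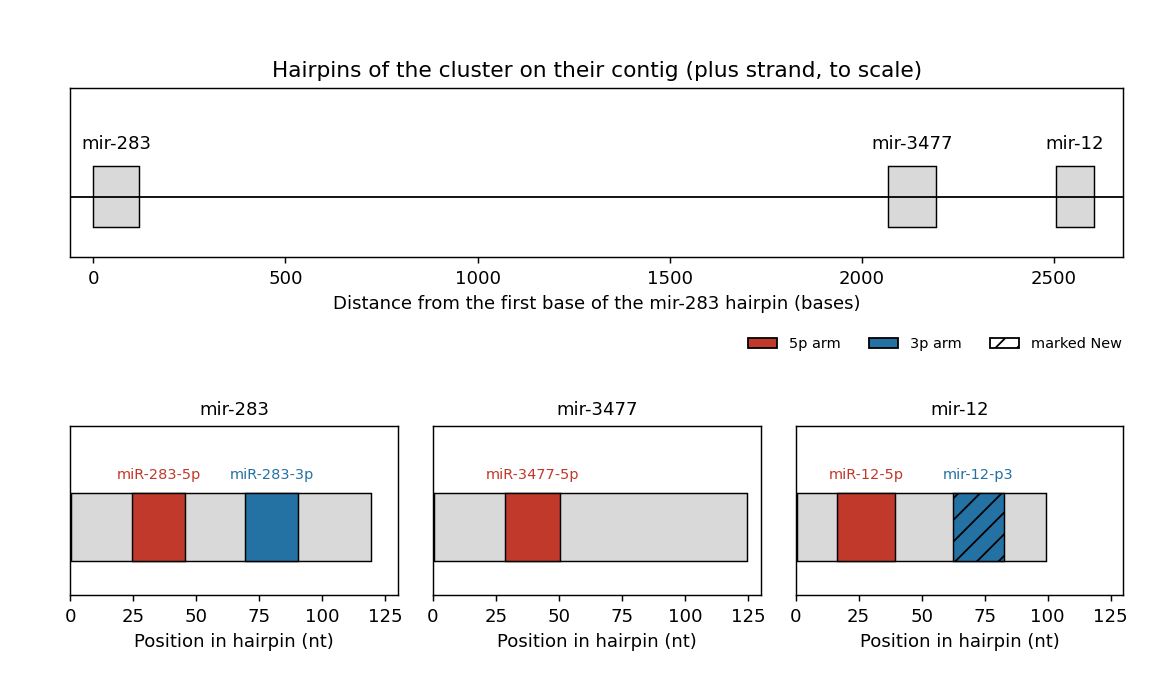
Map of the cluster, with the distance in bases from the first base of the mir-283 hairpin on the upper axis and the position within each hairpin in nt on the lower axes. Grey boxes are hairpins, red and blue boxes the listed 5p and 3p sequences, and hatching marks the New entry; mir-3477 and mir-12 are 312 bases apart, and mir-283 stands 1950 bases before them.

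The hairpins are printed to show where the listed arms sit, with these arms in capitals. They are taken from the supplementary list of known miRNAs, and their lengths of 119, 124 and 99 nt equal the positions in the deposited lists.
mir-283: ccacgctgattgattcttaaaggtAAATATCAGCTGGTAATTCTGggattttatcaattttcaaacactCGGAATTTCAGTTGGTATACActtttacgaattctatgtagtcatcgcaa
mir-3477: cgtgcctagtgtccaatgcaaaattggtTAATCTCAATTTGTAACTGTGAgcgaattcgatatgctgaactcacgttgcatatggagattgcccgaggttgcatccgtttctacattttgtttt
mir-12: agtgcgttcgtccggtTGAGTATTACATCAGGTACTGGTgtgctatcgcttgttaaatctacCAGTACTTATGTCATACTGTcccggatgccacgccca

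All 4 names of the cluster were detected in every library. In the whole set of 165 names, 108 were listed in all 4 libraries, which is 65.5%, while 25 names were listed in a single library. The 95% exact binomial interval of that share, 57.7% to 72.7%, covers counting error only. It treats names as independent, although both arms of a hairpin are separate names. With 4 names from 3 hairpins, the complete detection of the cluster is a description and stands against this background of 65.5%. The cluster names were detected in lists of different size, with 228 entries in the female list, 235 in the male, 194 in the ovary and 208 in the testis list. For both arms of miR-283 and for miR-3477-5p, each library listed the same single sequence at the same position. The 23 nt form of miR-12-5p was also identical in the 4 lists. In the authors' processing the most read sequence stood for a miRNA, so that end variants with fewer reads are not counted here.

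The libraries differed in 2 further entries, both from miR-12. Counting every entry of the cluster, New ones included, testes had 6, females 5, ovaries 5 and males 4. The whole lists held 208, 228, 194 and 235 entries in the same order. The sequence mir-12-p3, from the 3p arm of the mir-12 hairpin, was listed in females, ovaries and testes and not in males. The 25 nt form of miR-12-5p was listed in testes only. Without amounts, a missing entry gives no level. The lists give no read depth either, and its part in the detection of these 2 entries was not tested.

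**Figure D2:**
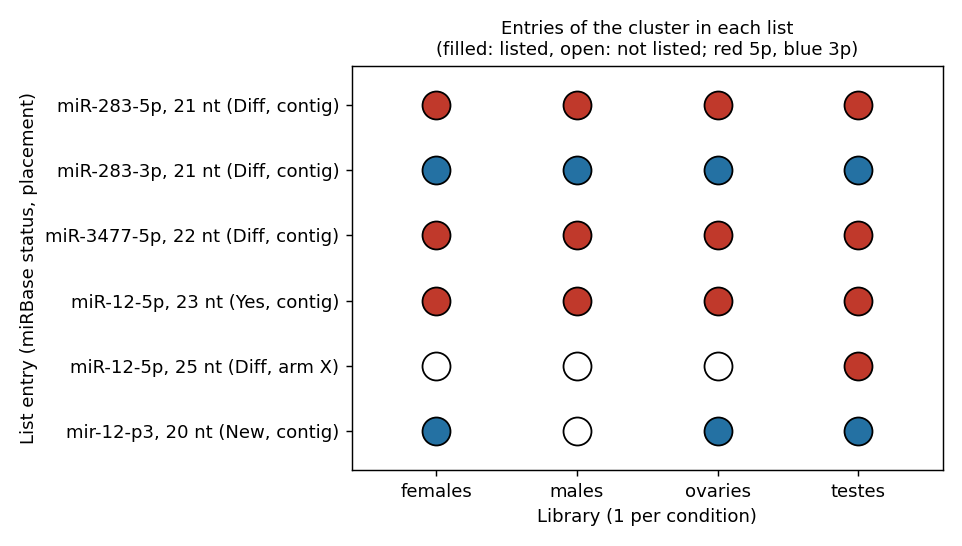
Entries of the cluster (vertical axis, with length, miRBase status and placement) in the 4 libraries (horizontal axis); a filled circle is a listed entry and an open circle one not listed, red for 5p and blue for 3p. The 4 names are filled in every column, the 25 nt form of miR-12-5p in testes only, and mir-12-p3 in all columns but males.

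miR-12-5p was the only member with more than 1 sequence form. Among the 165 names, 113 had a single form and 52 had several. Its 23 nt form had status Yes, as did 62 of the 235 distinct sequences of the lists, and was placed on the contig at JFBF01000073.1:1266978-1267000. The 25 nt form had status Diff and was placed not on a *B. dorsalis* contig but under the arm name X, from 15403506 to 15403579, in a precursor window of 74 nt. Arm names of this kind are those of *D. melanogaster*, and the build behind them is not given in the sources used here. Compared with the 23 nt form, the 25 nt form carried the single substitution G4T, with positions counted from 1 at the 5′ end, and went on for 2 bases. Set against the contig from 1266978 to 1267002, with the contig base given first, the 25 nt form had the substitutions G4T and G24A. Position 4 lies within the seed, so that the seed of the 25 nt form was GATTATT and that of the 23 nt form GAGTATT.

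A contig form together with a form under an arm name was seen for 41 of the 165 names, and these had 41 arm forms. Of the arm forms, 10 were listed in a single library, and the 25 nt miR-12-5p was 1 of 2 that were listed in testes only, beside a 25 nt form of miR-2a-3p. Sequences of 25 nt were the longest in the lists and numbered 5 among 235, where the median length was 22 nt. The X name was given to 14 distinct entries, of which the 25 nt miR-12-5p was the only one listed in testes alone. How this form arose was not tested.

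Both arms were listed for 2 of the 3 hairpins, for mir-12 only through the entry marked New. The mir-283 hairpin had miR-283-5p and miR-283-3p, both of 21 nt, in each of the 4 libraries. The mir-12 hairpin had miR-12-5p of 23 nt with mir-12-p3 of 20 nt in females, ovaries and testes. For mir-3477 only the 5p arm, of 22 nt, was listed, and no known, New or predicted entry covered its 3p side. On all contigs, 51 hairpin positions had both arms over the 4 lists, 42 of them without a New entry. Of the 51, 25, mir-283 included, had both arms in every library. For scale, known miRNAs had 113 loci on contigs when overlapping hairpins were joined. The 51 positions were not joined in this way, so that no exact share is given. The mir-12 position was among 7 with both arms in 3 libraries. Of these 7, the library without the pair was males for 2, ovaries for 3, females for 1 and testes for 1. The mir-12 position was also among 9 at which an arm was marked New. Of the 47 names marked New in the lists, 28 were found in a single library, and mir-12-p3 was 1 of the 7 found in 3 libraries.

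The listed arms faced each other in the predicted folds. In the structure given by RNAfold at 37 degrees, 18 of the 21 bases of miR-283-5p were paired, and all 18 paired with miR-283-3p. In mir-12, 19 of the 23 bases of miR-12-5p were paired, 17 of them with mir-12-p3. In mir-3477, 19 of the 22 bases of miR-3477-5p were paired, and their partners lay at positions 71 to 91 of the hairpin, a stretch of 21 nt from which no sequence was listed. The 5p and 3p arms were 24 nt apart in mir-283 and 23 nt apart in mir-12, and 20 nt lay between miR-3477-5p and the stretch that faces it. These numbers of facing pairs were the same at 28 degrees and without dangling ends. Cuts by Drosha and Dicer usually leave the 3′ ends of the strands protruding. Counted from the base opposite the 5′ end of the partner strand, the 3′ end of mir-12-p3 protruded by 0 nt and that of miR-12-5p by 2 nt, where the nearest pair was extended if the end base was unpaired. The corresponding values were 1 nt for miR-283-3p and 0 nt for miR-283-5p. These values rest on a single listed form per arm and on the predicted structure.

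**Figure D3:**
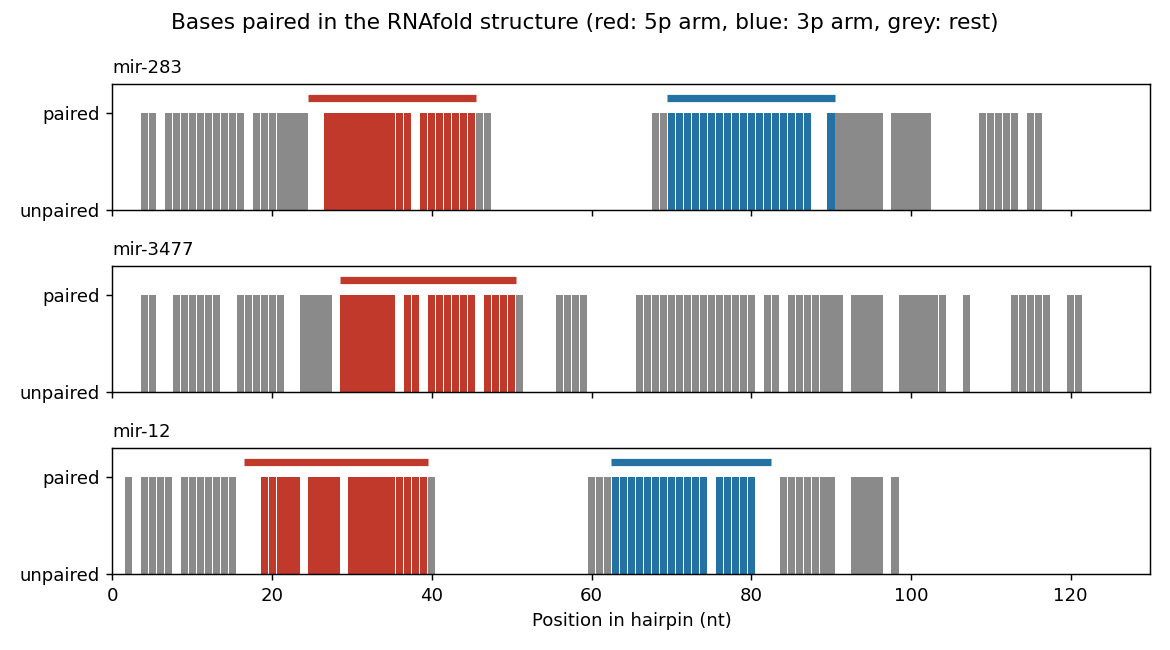
Bases paired in the predicted structure (bars at "paired") against the position in each hairpin in nt, with the 5p arm in red, the 3p arm in blue and other bases in grey; the coloured lines above mark the extent of each listed sequence. Paired bases number 18 of 21 in miR-283-5p, 19 of 22 in miR-3477-5p and 19 of 23 in miR-12-5p, and no sequence is listed for the 3p side of mir-3477.

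The hairpins differed in folding energy. The recomputed energy was -33.1 kcal/mol for mir-283, -34.8 kcal/mol for mir-3477 and -38.3 kcal/mol for mir-12, of which mir-12 was the shortest. Per 100 nt this gave -27.8, -28.1 and -38.7 kcal/mol. The same calculation for the 129 distinct hairpins of the known miRNAs had a median of -33.8 kcal/mol per 100 nt. In the order of these 129 values from the lowest, mir-12 was number 33, mir-3477 number 103 and mir-283 number 106, so that mir-12 lay below the median and the other hairpins above it. By length, mir-3477 and mir-283 were the 15th and 16th longest of the 129 and mir-12 the 37th. The part of length in these values was not tested.

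**Figure D4:**
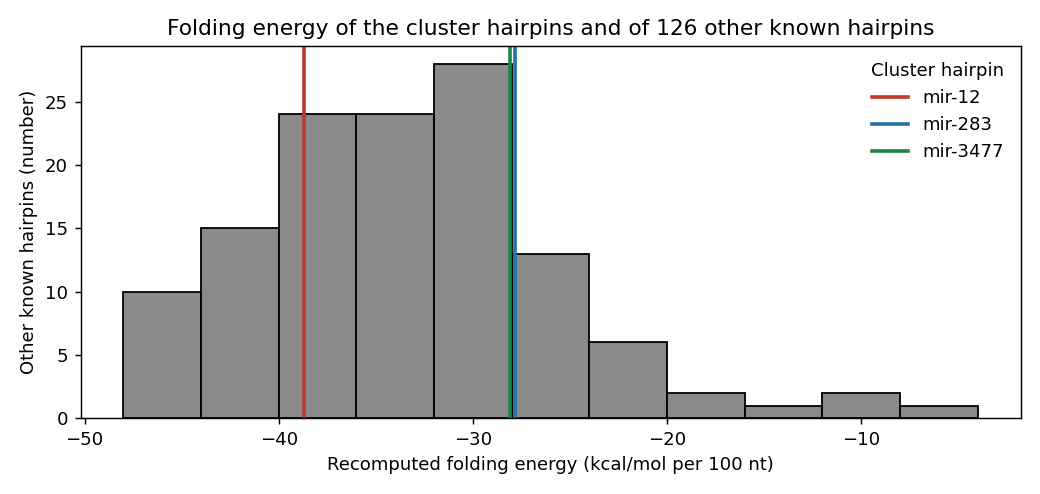
Recomputed folding energy of the 3 cluster hairpins (coloured lines) and of the other known hairpins (grey bars, number of hairpins) in kcal/mol per 100 nt. The line of mir-12 is at -38.7, and those of mir-3477 and mir-283 lie close together at -28.1 and -27.8.

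Within the cluster, miR-283-5p and miR-3477-5p were alike. Written one above the other from base 1, they had the same base at 14 of 21 positions and at 6 of the 7 positions of the seed. The differences, given with the base of miR-283-5p first, were A1T, A5C, G9A, C10T, G12T, T17C and C19G, of which A5C is the one in the seed (AATATCA in miR-283-5p, AATCTCA in miR-3477-5p). The other pairs of members shared 3 to 6 bases over 21 or 22 positions and 1 to 3 bases of the seed. For a background, pairs were formed over all listed names with their sequences, so that a sequence under several names entered more than once. Over the 27652 such pairs whose names have different numbers, the median share of equal bases was 26.3%, against 66.7% for miR-283-5p and miR-3477-5p. A share at least as high was found in 40 of these pairs, or 0.145%, and at least 6 equal seed bases in 207, or 0.749%. The comparison was not planned, and miR-283-5p with miR-3477-5p was the most alike pair among the members. The percentages make no allowance for that choice. Over their whole length, global alignments had 72 of 142 columns identical for mir-283 with mir-3477 (50.7%), 61 of 126 for mir-283 with mir-12 (48.4%) and 66 of 132 for mir-3477 with mir-12 (50%). These hairpin shares were close together, and no background was computed for them.

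The seeds of the cluster were rarely found elsewhere. The seed GAGTATT of miR-12-5p was shared with miR-960-5p, which was listed in females only, with status Diff and under the arm name 2L. It is shown for its first 8 bases, which are those of miR-12-5p.
miR-960-5p: tGAGTATTccagattgcatag
After base 8, the sequences had 5 of 13 positions in common. No other known, New or predicted name held the seed of miR-283-5p, miR-283-3p, miR-3477-5p, mir-12-p3 or the 25 nt miR-12-5p. A seed held by a single name was the usual case, as 142 of the 162 seeds of the known names, or 87.7%, had 1 name. With bases 2 to 7 alone, miR-3477-5p also matched a form of miR-993-3p that was listed in males.

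The 4 mature sequences lay below the median of the lists in G and C. The share of these bases was 27.3% in miR-3477-5p, 33.3% in miR-283-5p, 38.1% in miR-283-3p and 39.1% in the 23 nt miR-12-5p, against a median of 42.1% over the 235 distinct sequences. A share at or below that of the member was found in 11 of the 235 sequences for miR-3477-5p, 45 for miR-283-5p, 86 for miR-283-3p and 95 for miR-12-5p, so that miR-3477-5p was near the low end and miR-283-3p and miR-12-5p were closer to the middle. miR-3477-5p and both forms of miR-12-5p began with T, as did 125 of the 235 sequences (53.2%), while miR-283-5p began with A and miR-283-3p with C.

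The cluster was compared with the other contig clusters of known miRNAs. When hairpins on the same contig and strand were joined where their starts lay up to 10000 bases apart, and overlapping hairpins were counted as 1 locus, 28 of 113 loci fell into 9 clusters. With 2604 bases, the group of miR-283, miR-3477 and miR-12 was the 4th widest. It lay next to the group of miR-2a, miR-13a and miR-13b, with 2619 bases and 3 loci, and that of miR-11 and miR-998, with 2502 bases and 2 loci. The wide gap of 1950 bases was likewise close to the largest gaps of those groups, 2024 and 2312 bases. Every name was detected in all 4 libraries in 6 of the 9 clusters, this one included. The exceptions were the groups of miR-9b and miR-9c, of miR-309, and of let-7, in each of which 1 name was not listed in every library.

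**Figure D5:**
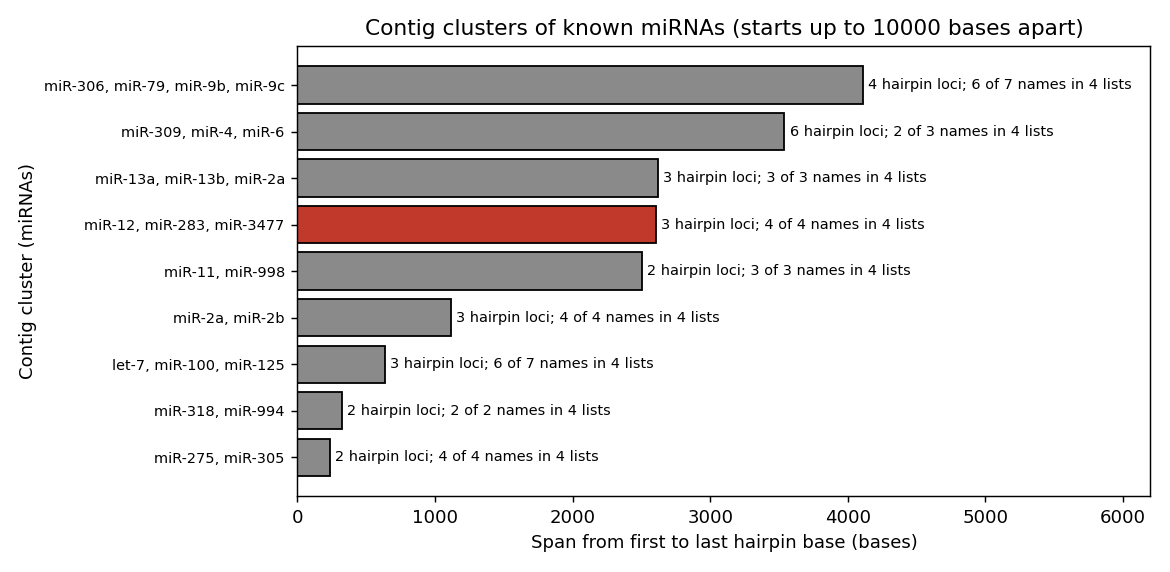
Span in bases (horizontal axis, from 0) of the 9 contig clusters of known miRNAs (vertical axis), with the number of hairpin loci and of names listed in all 4 libraries beside each bar. The cluster of miR-12, miR-283 and miR-3477, in red, spans 2604 bases with 4 of 4 names in all lists.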

How the data were processed

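Small RNA was sequenced from 4 libraries without replicates. Reads of low quality, adaptors and other RNA classes had been discarded by the authors, who matched the rest to miRBase with at most 1 mismatch; the labels name ACGT101-miR 4.2. Each deposited list gives a sequence, its length (nt), its position (bases) and the miRBase status, with no amounts or read depth, so levels and their intervals were not computed. The deposited energies of predicted miRNAs were not used.

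Members and lists were chosen with earlier results of these data known. Named miRNAs were the members, New forms of their numbers, neighbours within 50000 bases, names that share a seed and members of compared clusters; miR-2a-3p, miR-993-3p and the farther neighbours on the contig were named after their values were seen. Hairpin sequences were read from the supplementary list and folded with RNAfold 2.7.2. Equal bases were counted without gaps; hairpins were aligned globally in Biopython 1.88 (match 1, mismatch -1, gap opening -2, extension -0.5). Python 3.11.15, pandas 2.3.3, scipy 1.17.1 and matplotlib 3.10.9 were used. The functions were tested on small made-up cases with known answers, and 18 of 18 gave the known answer. Alternatives were other counting rules, seeds, distances and folding settings. Gene annotation of another assembly was not used.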

Additional observations from a re-analysis of the deposited data

How the results depend on the processing

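Of 27 alternatives tried over counts of names, span, neighbours, seeds, folding energy and rank, 25 stayed close to the value in the text, which meant within 1.5 times for counts, spans, ranks and energies, and inside the exact interval for the share of names. That share, of all names found in every library, was 52.8% with New entries counted, against 65.5% without them, and so fell outside its interval. The number of other names that share a seed with the cluster was 2 with bases 2 to 7, against 1 with bases 2 to 8. For the counts of cluster names per library the limit was wide, as they were 4 in the text and 4 or 5 in the alternatives. When hairpins were joined only up to 1000 bases, mir-283 fell outside the group, and mir-3477 with mir-12 was the 5th widest of 8. This alternative counted as close by its rank alone, although the group then spanned 535 bases against 2604. The lists hold no amounts and 1 library per condition, so levels, arm ratios and differences in level between libraries were not measured from them. For the same reasons, no paired analysis of bodies and gonads was possible.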

Other observations

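The contig of the cluster, JFBF01000073.1, also held the known hairpins of miR-13b-3p and miR-31b and 3 predicted miRNAs. The predicted PC-5p-49655_32, from 242052 to 242123 on the plus strand, lay inside the hairpin of miR-13b-3p, which runs from 242048 to 242128. The other predicted entries, PC-3p-63628_23 on the minus strand and PC-3p-16809_139 on the plus strand, were 518342 and 479576 bases from the cluster.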
